A study of Drosophila melanogaster with 3 samples.

Results

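Distal intronic peaks are sites of ChIP-seq signal for a tagged fly protein that lie deep inside genes, in introns and away from any start of transcription. They were taken from the reproducible (optimal) peak list of a ChIP-seq experiment by position alone. The summit had to lie inside an annotated gene and in no annotated exon, more than 500 bp from every transcription start site (TSS) and more than 2000 bp from the nearest TSS of a protein-coding gene. Of the 3545 optimal peaks, 687 met this rule, which is 19.4% of the list. Chromatin came from whole *Drosophila melanogaster* embryos collected 0 to 24 h after egg laying, with both sexes pooled, and was precipitated with an antibody to green fluorescent protein (GFP). The embryos carried a transgene for a carboxyl-terminal GFP fusion, which the labels name after CG45071, CG6854 and CTPsyn in different fields. There was 1 group with 3 biological replicates and no untagged or second group among the samples. All samples came from 1 transgenic line, and whole embryos of mixed stages do not show in which cells or at which hour a site was bound. Sequencing depth is unknown, because only peak lists were analysed.

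Introns of fly developmental genes often hold enhancers, stretches of DNA that recruit regulatory proteins and act on a promoter at a distance. The first long intron of a gene is a common place for them. ChIP-seq records where a tagged protein can be cross-linked to DNA, directly or through other proteins, and does not tell which gene a site acts on. Among the names in the labels, CTPsyn stands for CTP synthase, an enzyme that makes the nucleotide CTP and assembles into filaments in fly tissues. The labels differ between fields on the name of the tagged gene, and whether these names refer to the same gene was not tested. The peaks are therefore not assigned to CTP synthase here.

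The DNA at the summits of the strongest distal intronic peaks is printed here because members had a lower GC content at the summit than weaker peaks of the same position class in each replicate. Each line gives the host gene, the dm6 coordinates and 101 bases of the + strand, written 5′ to 3′ and centred on the summit, from the RefSeq sequence of the same assembly. Capitals mark unbroken runs of 8 or more A or T letters. The first 6 are among the 9 strongest members, and crp and Raf lead large clusters of peaks. They were taken by rank and chromosome. The others of the 9, in sbb, CG12769 and Hr3, are not printed and had 44.8%, 28.4% and 35.3% GC in 201 bp. Of the 20 strongest members, 16 were below the 41.1% mean of weaker peaks, and the 20 ran from 21.9% to 49.3%.
Tlk, chrX:3742157-3742257: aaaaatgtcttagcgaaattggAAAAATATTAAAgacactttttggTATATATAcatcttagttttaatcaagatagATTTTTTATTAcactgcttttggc
trx, chr3R:14283824-14283924: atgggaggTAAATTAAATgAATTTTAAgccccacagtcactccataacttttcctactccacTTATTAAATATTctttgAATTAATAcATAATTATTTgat
Kdm2, chr3R:9057498-9057598: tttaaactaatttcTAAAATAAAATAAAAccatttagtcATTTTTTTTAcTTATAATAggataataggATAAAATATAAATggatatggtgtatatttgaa
simj, chr3L:10682943-10683043: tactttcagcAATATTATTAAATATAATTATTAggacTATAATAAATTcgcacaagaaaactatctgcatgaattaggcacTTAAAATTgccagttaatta
CHES-1-like, chrX:7706945-7707045: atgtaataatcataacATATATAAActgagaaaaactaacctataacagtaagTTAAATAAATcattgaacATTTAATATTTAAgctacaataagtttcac
Gug, chr3L:8458276-8458376: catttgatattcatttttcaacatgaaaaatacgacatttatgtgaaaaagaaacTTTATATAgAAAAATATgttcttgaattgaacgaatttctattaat
crp, chr2L:16269546-16269646: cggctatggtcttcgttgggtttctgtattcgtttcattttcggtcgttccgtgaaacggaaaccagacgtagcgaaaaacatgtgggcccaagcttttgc
Raf, chrX:2297664-2297764: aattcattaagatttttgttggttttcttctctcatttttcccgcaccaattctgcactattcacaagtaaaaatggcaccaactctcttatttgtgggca
The windows of Tlk, trx, Kdm2, simj, CHES-1-like and Gug held 73 to 84 A or T letters among the 101 shown. The window of simj had an unbroken run of 23 such letters. The window of crp had 52 A or T letters and no run over 5. The window of Raf had 65 A or T letters, no run over 7, and both a GAGAG and a GCCAT word when either strand is read.

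Distal intronic sequence was the second most common setting of optimal peaks after promoters. Promoters held 1872 optimal peaks, introns nearer to a protein-coding TSS (called proximal intronic here) held 532, sequence between genes held 359, and exons held 95. The pooled list before the reproducibility filter had 30000 peaks, of which 8636 were distal intronic. Of those 8636 peaks, 7.96% were optimal (Wilson 95% interval 7.40 to 8.54), against 11.8% of all pooled peaks. The same share was 13.8% for proximal intronic peaks, 7.54% for peaks between genes, 18.8% at promoters and 3.40% in exons. The optimal list is the top of the pooled list by signal, so these shares describe the list and carry no test. Within each replicate, distal intronic peaks made up 17.7%, 19.2% and 19.1% of the 3545 highest peaks of replicates 1, 2 and 3. Their mean share of these top lists was 18.7% ± 0.874 (SD, n = 3), and their mean share of the weaker peaks was 29.3% ± 0.382 (SD, n = 3).

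Members lay towards the weaker end of the optimal list. Their median signal, the authors' own value for each peak, was 159 with quartiles of 131 and 218, against a median of 167 for all optimal peaks. The medians were 169 for proximal intronic peaks, 164 between genes, 174 at promoters and 150 in exons. The difference from proximal intronic peaks was -10.1, and it was -16.7, -16.1 and -14.0 among peaks held by both other replicates when replicate 1, 2 or 3 was left out. There were 8 members among the 100 strongest optimal peaks and 58 among the 500 strongest. Below rank 2000, 21.4% of the optimal peaks were members, against 12.5% between ranks 100 and 500. In the replicates' own top lists, the median signal of distal intronic peaks was 41.2, 68.3 and 58.7, and that of proximal intronic peaks 42.1, 71.9 and 64.4, in replicates 1, 2 and 3. The distal median was lower in 3 of 3 replicates, by a mean difference of -3.40 ± 2.34 (SD, n = 3). A two-sided exact sign-flip permutation test gave p = 0.25, the smallest value that 3 replicates allow, so no such comparison here could pass a threshold of 0.05.

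The 20 strongest members lay in 18 genes, and all 20 were in the top lists of all 3 replicates. They included genes of chromatin regulators and transcription factors. The strongest lay in intron 2 of Tlk (chrX:3742045-3742379), which encodes Tousled-like kinase, a protein kinase of chromatin assembly, 2310 bp from the nearest TSS. Its signal was 1201 in the pooled list and 311, 471 and 415 in replicates 1, 2 and 3, where it ranked 8, 21 and 13. The next lay in intron 2 of sbb (scribbler, a nuclear co-repressor, chr2R:18336913-18337324), 20103 bp from the nearest protein-coding TSS, with signals of 242, 408 and 330 in the replicates. The third lay in intron 1 of CG12769 (chr2R:8060839-8061192), with 196, 378 and 316.

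Peaks in trx, Kdm2 and simj followed. trx encodes Trithorax, a histone methyltransferase that keeps homeotic genes active, and its peak (intron 1, chr3R:14283716-14284024) had signals of 168, 351 and 194 in replicates 1, 2 and 3. The Kdm2 peak (intron 2, chr3R:9057343-9057713) had 138, 345 and 241, in a gene of a histone demethylase family. simj, for a subunit of the NuRD chromatin remodelling complex, held 2 of the 20, in the same intron 1, and the stronger (chr3L:10682774-10683183) had 159, 309 and 247. Replicate 1 gave the lowest signal at each of these peaks, as it did over the top lists as a whole. The nuclear receptor gene Hr3 (intron 1, chr2R:10219909-10220228) had 161, 287 and 253, and CHES-1-like, a forkhead family gene (intron 1, chrX:7706828-7707150), had 163, 262 and 224.

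Gug, which encodes the co-repressor Atrophin, held 2 of the 20 in intron 2. The stronger (chr3L:8458192-8458473) had signals of 194, 248 and 209 in replicates 1, 2 and 3. The weaker (chr3L:8455446-8455657) had 78.6, 242 and 255 and ranked 500 in replicate 1, the poorest rank of any of the 20 in any replicate. The remaining hosts were crp (a basic helix-loop-helix factor gene), CG32486, CG13894, Dys (dystrophin), Lrch, Raf (the kinase between Ras and MEK), tara, Pits and CG34417. The Dys peak lay in intron 15, and the other 19 lay in intron 1 (11) or intron 2 (8).

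**Figure D1:**
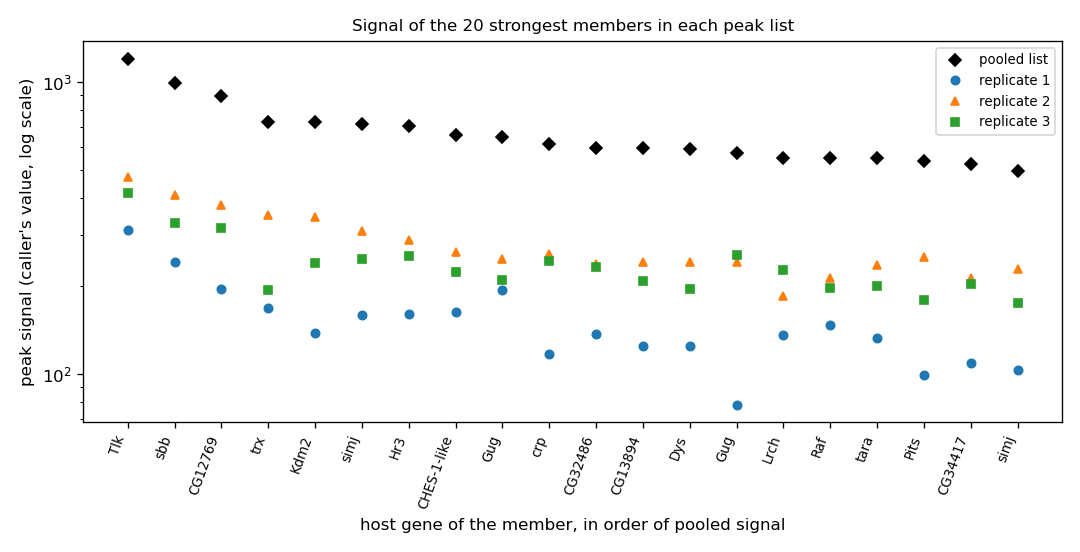
Signal of the 20 strongest members (log scale) in the pooled list and in each replicate's own list, 1 column per member, named by host gene and ordered by pooled signal. Each point is the caller's value for the overlapping peak. The replicate 1 point is the lowest of the 3 replicates in every column, and the second Gug column has the widest ratio between replicates, at 78.6 against 242 and 255.

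Whether all 3 replicates held a member followed its pooled signal. The pooled list derives from the same 3 replicates, so the 2 measures are not independent and their relation is no test of reproducibility. A replicate was counted as holding a member when its own 3545 strongest peaks shared at least 1 base with it. All 3 replicates held 358 members, 52.1% (Wilson 95% interval 48.4 to 55.8), against 57.2% of all optimal peaks. The share was 58.1% for proximal intronic peaks (53.8 to 62.2), 56.5% between genes (51.4 to 61.6) and 59.6% at promoters (57.3 to 61.8). The intervals of members and proximal intronic peaks overlap, and intervals over peaks cover counting error only. Replicates 1, 2 and 3 held 70.6%, 82.1% and 80.3% of the members. With the members split into 4 equal groups by signal, 171 of 172 in the strongest group (218 or more) were held by all 3 replicates. In the weakest group, with signals up to 131, 7 of 172 were. With the whole relaxed lists of 30000 peaks, 682 members (99.3%) were found in all 3 replicates, and 10 members were in none of the 3 top lists.

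Some neighbouring members rest on the same replicate peak. Overlap by at least 1 base lets 1 replicate peak stand for several members, and in each replicate 52 members shared their peak with another member. The 358 members held by all 3 replicates corresponded to 337 distinct sets of replicate peaks. Summits in the pooled list were never closer than 199 bp, and 26 of the gaps between neighbouring members were 250 bp or less. In shn, the peaks at chr2R:11194712-11194851 and chr2R:11194811-11195246 had pooled signals of 336 and 179 and the same replicate signals, 68.0, 126 and 152.

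Members were densest in intron 1 and intron 2 and thinned out towards later introns. Introns were numbered in the longest transcript of the host gene that holds the summit. Intron 1 held 278 members, 40.5% (Wilson 95% interval 36.9 to 44.2), intron 2 held 250, intron 3 held 70, and later introns held 89. All sequence that meets the positional rule, called eligible here, came to 42.73 Mb, of which 25.6% was in intron 1. Density was 25.4 members per Mb of eligible sequence in intron 1 (exact Poisson 95% interval 22.5 to 28.6) and 21.4 in intron 2 (18.8 to 24.2). It was 12.2 in intron 3, 9.50 in intron 4 and 5.19 in intron 5 and later (3.93 to 6.72).

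Weaker distal intronic peaks showed a shallower gradient in the same direction. These are the 7949 distal intronic peaks of the pooled list outside the optimal list. Their density fell from 250 per Mb in intron 1 to 93.6 in intron 5 and later, and 34.4% of them lay in intron 1 (33.4 to 35.5). In the replicates' own lists, the intron 1 share of distal intronic peaks in the top list was 40.3%, 41.9% and 42.2%, and that of weaker ones 33.4%, 35.1% and 33.6%. The share was higher among the top peaks in 3 of 3 replicates, by 7.41 percentage points ± 1.04 (SD, n = 3; two-sided exact sign-flip permutation test, p = 0.25). The numbering depends on the transcript chosen. Of the members, 32.5% lay in intron 1 of every transcript that spans them and 58.5% in intron 1 of at least 1.

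Density also fell with distance from promoters. It was 31.7 members per Mb between 2 and 3 kb from the nearest protein-coding TSS (exact Poisson 95% interval 26.8 to 37.1), 26.4 between 3 and 5 kb, 18.6 between 5 and 10 kb, 10.6 between 10 and 20 kb, and 4.54 at 20 kb and more (3.37 to 5.99). Weaker peaks went from 260 to 86.5 per Mb over the same range. The median distance of members was 5034 bp, against 6759 bp for weaker peaks. In replicates 1, 2 and 3 the median was 5458, 5130 and 5225 bp for top peaks and 6916, 6642 and 6654 bp for weaker ones, a mean difference of -1466 bp ± 41.9 (SD, n = 3; two-sided exact sign-flip permutation test, p = 0.25).

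Both gradients were present together. Between 2 and 5 kb from a TSS, density was 35.6 members per Mb in intron 1 (30.3 to 41.6), 34.9 in intron 2 (28.8 to 41.8) and 15.7 in intron 3 and later, whose interval began at 12.1. At 10 kb and more it was 11.0 in intron 1 (7.65 to 15.3) and 4.19 in intron 3 and later (3.10 to 5.54). Introns 1 and 2 had overlapping intervals in each of 3 distance ranges, and intron 3 and later lay below both in each.

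**Figure D2:**
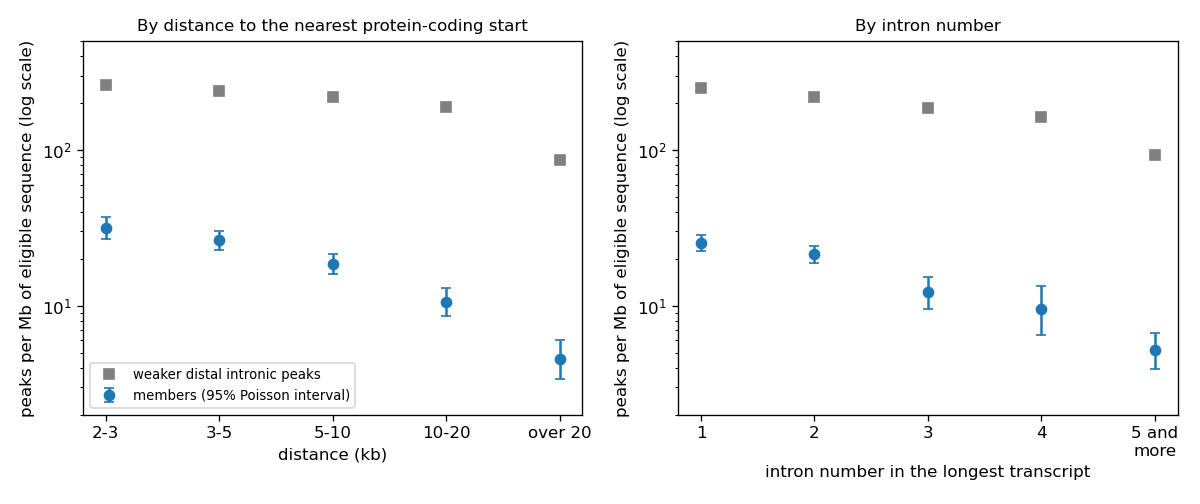
Peaks per Mb of eligible sequence (log scale) by distance to the nearest protein-coding TSS in kb (left) and by intron number (right), for members (blue, with exact Poisson 95% intervals) and weaker distal intronic peaks (grey squares). Members fall from 31.7 to 4.54 per Mb with distance and from 25.4 to 5.19 with intron number.

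By count alone, position within the intron was close to even. The positional rule leaves out sequence near a TSS, and these counts were not set against the eligible sequence of each part. They therefore do not show an even density. The 5 equal parts of the intron, from its 5′ to its 3′ end, held 19.5%, 21.7%, 18.5%, 21.5% and 18.8% of the members. Introns with members were long, with a median of 15726 bp and quartiles of 7632 and 31085 bp, against a median of 16859 bp for weaker peaks. Per Mb, introns of 5 to 10 kb held 21.4 members and introns of 40 kb and more held 10.6. The large chromosome arms were close to each other, at 18.1 members per Mb on 2L, 17.1 on 2R, 16.5 on 3L, 14.0 on 3R and 16.9 on X, with intervals that overlap the overall 16.1 (14.9 to 17.3). Chromosome 4 had 0 members in 0.46 Mb of eligible sequence, which allows up to 8.03 per Mb (exact Poisson 95% interval), and 8 weaker peaks.

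The members nearest to the distance limit, and the peaks just short of it, are given as a description. Just over 2000 bp from a protein-coding TSS lay peaks in inaE (2001 bp, signal 125), CG43783 (2003 bp, 116), Men-b (2004 bp, 129), Irk1 (2005 bp, 118) and Sin3A (2012 bp, 180). Just under it, and so not members, were peaks in lncRNA:CR44320 (1997 bp, 254), snu (1996 bp, 136), CG9171 (1991 bp, 120), RhoGAP18B (1988 bp, 168) and Rab11 (1976 bp, 195). The farthest member lay in intron 11 of hth (homothorax, a homeodomain cofactor of Hox proteins, chr3R:10520543-10520978), 85972 bp from any protein-coding TSS, with a signal of 153. The weakest member lay in intron 4 of Tet (chr3L:2806101-2806536), a gene for a methylcytosine dioxygenase family protein, with a signal of 114. It ranked 21323 in replicate 1 but 2892 and 3638 in replicates 2 and 3.

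The 687 members fell in 452 genes, of which 435 were protein-coding. That is 10.1% of the 4320 protein-coding genes with eligible sequence, and this share is the background for the gene lists below. A single member was found in 285 of the protein-coding hosts, 88 had 2, and 62 had 3 or more. Hosts with 2 or more held 399 members, 58.1% of the total. Hosts had a median of 17.3 kb of eligible sequence and other protein-coding genes 1.09 kb. Of the 171 protein-coding genes with over 50 kb, 68 were hosts, and of the 2879 with under 5 kb, 79 were. For 509 members (74.1%), the nearest protein-coding TSS belonged to the host itself. This share was not set beside the same share of weaker peaks or of eligible sequence. There were 37 members inside more than 1 gene, and 2 touched an annotated transposable element.

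Promoter peaks were counted at hosts and at other genes with eligible sequence. An optimal promoter peak was present at 191 of 435 protein-coding hosts, 43.9% (Wilson 95% interval 39.3 to 48.6), and at 764 of 3885 other genes, 19.7% (18.4 to 20.9). Within ranges of eligible length, the shares in hosts and other genes were 36.7% against 18.5% under 5 kb, 44.7% against 23.7% from 5 to 20 kb, and 46.2% against 20.6% at 20 kb and more. These intervals treat genes as independent, and no test over replicates was made.

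The gene with most members was shn (schnurri, a zinc-finger co-repressor of the Dpp pathway), with 10 over intron 1 and intron 2. Their pooled signals ran from 138 to 336, and 9 of the 10 were in the top lists of all 3 replicates. sbb had 8 members, all in intron 2, with pooled signals from 127 to 993. Raf and ush (u-shaped, a zinc-finger cofactor of GATA proteins) had 7 each. The Raf members lay in intron 2, 5 of them within 6337 bp near the 5′ end of the gene, and the strongest (chrX:2297579-2297842) had signals of 148, 214 and 197 in replicates 1, 2 and 3.

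crp and Snoo (a Smad-binding co-repressor gene) had 6 members each. The strongest in crp (chr2L:16269465-16269720) had replicate signals of 117, 257 and 243, and the strongest in Snoo (chr2L:7925465-7925681) had 92.5, 136 and 116. With 5 each followed tara, CHES-1-like, Eip75B (an ecdysone-induced nuclear receptor gene), CG46385, rdx (a Cullin-3 adaptor gene), pum (a translational repressor gene), ftz-f1 (a nuclear receptor gene), RapGAP1 and Tet. In tara all 5 lay in its long intron 1 and all 5 were in the top lists of all 3 replicates. The densest host with at least 3 members was CHES-1-like, at 6.44 members per 10 kb of eligible sequence, followed by CG14434 (6.07), side-IV (5.97), CG5346 (5.75), babos (5.66) and CG3764 (4.37). By comparison, pum had 0.343 per 10 kb. Close summits count as separate members in these densities. The smallest gap between members was 218 bp in CG14434 and 201 bp in side-IV. It was 725 bp in babos, 1361 bp in CHES-1-like, 1509 bp in CG5346 and 2706 bp in CG3764. Density per gene was not counted with overlapping peaks merged.

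**Figure D3:**
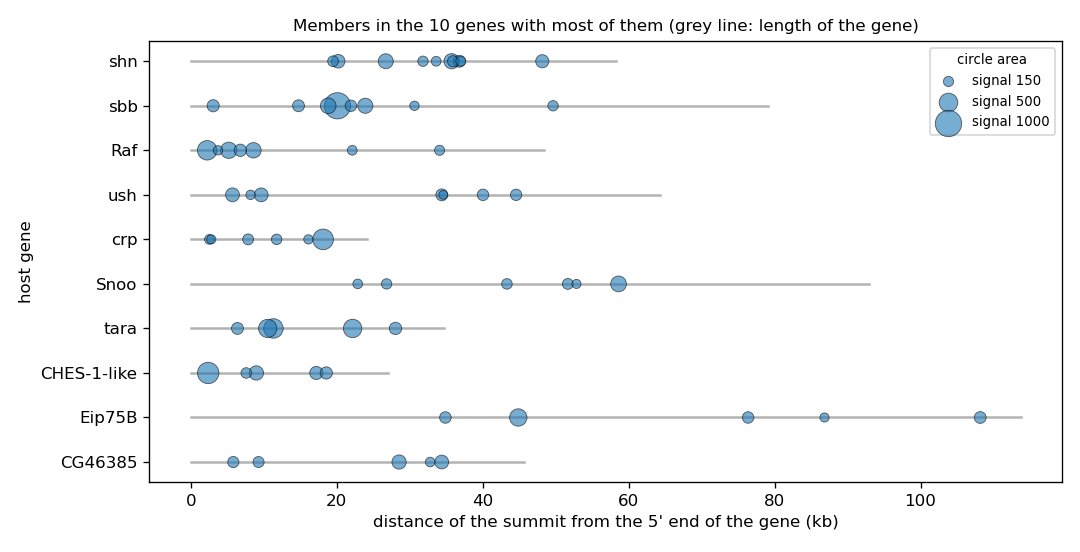
Position of each member in the 10 protein-coding genes with most members, as the distance of the summit from the 5′ end of the gene in kb, with circle area in proportion to pooled signal and the grey line as the length of the gene. In Raf, 5 of 7 circles sit in the first part of the gene, and in shn 9 of 10 lie in 1 stretch.

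Most members stood alone at a linking distance of 10 kb. Joining summits up to 10 kb apart left 392 single members and put 295 (42.9%, Wilson 95% interval 39.3 to 46.7) into 117 clusters, of which 115 lay in 1 host each. Of the clusters, 81 had 2 members, 24 had 3, and 12 had 4 or more. Their median span was 3683 bp. The share with another peak of the same class within 10 kb was 48.2% at promoters (45.9 to 50.4), 37.3% between genes (32.5 to 42.4), 32.3% for proximal intronic peaks (28.5 to 36.4) and 14.7% in exons. These sets differ in size and in the sequence they can occupy, so the shares are given side by side without a test. With optimal peaks of every class counted, 475 members (69.1%) had a neighbour within 10 kb, close to the 68.0% of all optimal peaks that had one. Overlapping peaks count separately in all of these values. Of the members, 57 overlapped another optimal peak. With overlapping peaks merged, 38.7% of the members were within 10 kb of another member.

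The largest cluster lay in shn, with 9 members over 17509 bp, between chr2R:11178366 and chr2R:11196310. All 9 were in the top lists of all 3 replicates, and the pooled list had 20 summits in the same span. The next in size had 6 members each, in sbb (15886 bp, 5 of them held by all 3 replicates) and in crp (15575 bp, 3 of them). Clusters of 5 lay in Gug with its neighbour CG6983, in Raf, in CHES-1-like and in rdx, and 4, 4, 5 and 3 of their members were held by all 3 replicates. In shn and CHES-1-like every clustered member was thus held by every replicate. By signal, 56.4% of the strongest of the 4 signal groups were in clusters, against 36.0% of the weakest.

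Gene lists chosen by pathway showed member densities on both sides of the overall 16.1 per Mb. The chromatin regulator and nuclear receptor lists were above it. The lists do not hold every gene of their kind, so all values are for the listed genes only. That overall value is not matched for position. Density over all eligible sequence was 31.7 per Mb under 3 kb from a protein-coding TSS and 4.54 at 20 kb and more. Median eligible sequence per gene was 1.05 kb in the chromatin regulator list and 31.6 kb in the axon guidance list. No list was compared with sequence at like distance from a TSS, so the part of distance in these densities was not tested. Among the 37 chromatin regulator genes with eligible sequence, 12 were hosts (32.4%, Wilson 95% interval 19.6 to 48.5), at 64.5 members per Mb (exact Poisson 95% interval 38.2 to 102). The strongest peaks of this list were in trx, Kdm2, gpp (the histone H3 lysine methyltransferase of the Dot1 family) and Psc (a Polycomb group gene). On the same list, ash1 and Asx had none in 0.06 and 0.73 kb of eligible sequence. The NuRD subunit gene simj is not on it and had 3 members, the strongest at optimal rank 82. Of 23 hormone and nuclear receptor genes, 11 were hosts, with 28 members at 41.1 per Mb (27.3 to 59.5). Hr3 and Hr4 had 4 each, Eip75B and ftz-f1 5 each, while Blimp-1 had 0 in 3.11 kb and br, the ecdysone-induced Broad factor gene, had 0 members and 16 weaker peaks in 53.55 kb.

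Zinc-finger and other patterning factor genes had 13 hosts of 42 and 41.5 members per Mb (28.7 to 57.9), led by shn, dar1, ush and Mef2. Both ab and bi were without a member, in 37.8 and 61.78 kb. Homeobox genes had 4 hosts of 55, 7.27%, and 9.79 members per Mb (4.48 to 18.6), an interval that holds the overall density, and 6.0 without Antp (1.95 to 14.0). The hosts on this list were Antp (4 members), hth (3), lbl (1) and Lim1 (1). The list is not complete. The homeobox genes NK7.1 (2 members in 29.59 kb of eligible sequence) and cad (1 in 8.85 kb) were hosts outside it. abd-A and Abd-B, Hox genes of the abdomen, had 0 members in 15.72 and 17.7 kb of eligible sequence. Without the gene of most members, the chromatin regulator list (59.8 per Mb without gpp, 33.5 to 98.7), the nuclear receptor list (38.1 without Eip75B, 24.2 to 57.2) and the zinc-finger list (30.4 without shn, 19.5 to 45.2) had intervals above 16.1. The densities of the lists were not tested against each other.

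Several lists of signalling genes were also above the overall density. For the EGF and FGF receptor pathways, 8 of 21 genes were hosts, at 46.2 per Mb (26.9 to 74.0), with the strongest peaks in Raf, aos (a secreted EGF receptor antagonist), cic (a repressor inactivated by the pathway) and pnt (its Ets-type effector). For Hedgehog and Dpp, 7 of 23 were hosts, at 45.6 per Mb (21.9 to 83.8), with Dad (an inhibitory Smad), ptc (the Hedgehog receptor), cv-2 (a Dpp-binding protein) and dally (a glypican) leading. Insulin and growth control genes had 6 hosts of 17 and 62.6 per Mb (32.4 to 109), among them bun, REPTOR, sima and ImpL2. These 3 intervals lie above the overall density, but they count several members of 1 gene as independent. With the gene of most members left out, an alternative added after the data were seen, the first 2 include it: 29.4 per Mb without Raf, which holds 7 of the 17 EGF and FGF members (14.1 to 54.1), and 34.9 without cv-2 (14.0 to 72.0). The insulin list had 49.0 without InR (21.2 to 96.6).

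The intervals of the Wnt list (7 of 22, 24.1 per Mb, with arr, fz, dlp and dally leading), the Notch list (2 of 10, 24.5 per Mb, 6.42 without mam, from mam and N) and the JAK-STAT, Toll and Hippo list (6 of 18, 22.7 per Mb, Dif, cact, ex and wts leading) include the overall density. So do those of the cytoskeleton and cell polarity list (9 of 32, 22.9 per Mb, brat, baz, shot and scrib leading), the muscle and mesoderm list (5 of 24, 16.5 per Mb, Zasp52, Mef2, Msp300 and how leading) and the cell cycle list (3 of 16, 52.1 per Mb, interval 10.7 to 152, from trbl, Cdk4 and E2f1). Listed genes with eligible sequence and no member, taken first by alphabet, were dx and fng (Notch), Apc and arm (Wnt), btl and drk (EGF and FGF receptors), Actbeta and babo (Hedgehog and Dpp), dl and dome (JAK-STAT, Toll and Hippo), Akt and chico (insulin), Abl and alpha-Spec (cytoskeleton), bt and if (muscle), and ago and CycA (cell cycle).

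The 2 lists of neural genes had the lowest densities per Mb. With the gene of most members left out of each list, the ion channel list stayed lowest (3.75). The homeobox (6.0) and Notch (6.42) lists were then below the axon guidance list (7.37). The shares of hosts in the 2 neural lists were not below the 10.1% background. That background is over 4320 genes, of which 2879 had under 5 kb of eligible sequence. The medians were 31.6 and 15.6 kb in the axon guidance and ion channel lists. Among protein-coding genes with 20 kb and more, 195 were hosts and 393 were not, and from 5 to 20 kb 161 and 692. The list shares were not tested against genes of like length. Axon guidance and neural adhesion genes had 16 hosts of 65, 24.6% (Wilson 95% interval 15.8 to 36.3), and 8.03 members per Mb (5.14 to 11.9), with a median of 31.6 kb of eligible sequence per gene. kirre (an adhesion receptor gene) had 4 members in 290.53 kb, fra (the netrin receptor) 2 in 22.69 kb, babos 3 in 5.3 kb and sli (the Slit ligand) 1 in 28.13 kb. Ion channel and transmitter receptor genes had 7 hosts of 63, 11.1% (5.49 to 21.2), with 1 member each, at 4.26 per Mb (1.71 to 8.78), among them the potassium channel genes Shab and Sh and the amine receptor genes Octbeta3R and Dop1R2. Of the pooled distal intronic peaks in these genes, 3.38% were optimal, against 7.96% overall and 15.7% in the chromatin regulator list. In the neural lists, beat-Ia, beat-IIIc, 5-HT1A and 5-HT1B had eligible sequence and no member. The channel genes Elk, ClC-a and Ih were hosts but are not on the ion channel list. They had 1 member each, in 29.48, 3.25 and 7.68 kb of eligible sequence. None of the 92 cytoplasmic ribosomal protein genes had eligible sequence, so these genes could not be hosts.

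**Figure D4:**
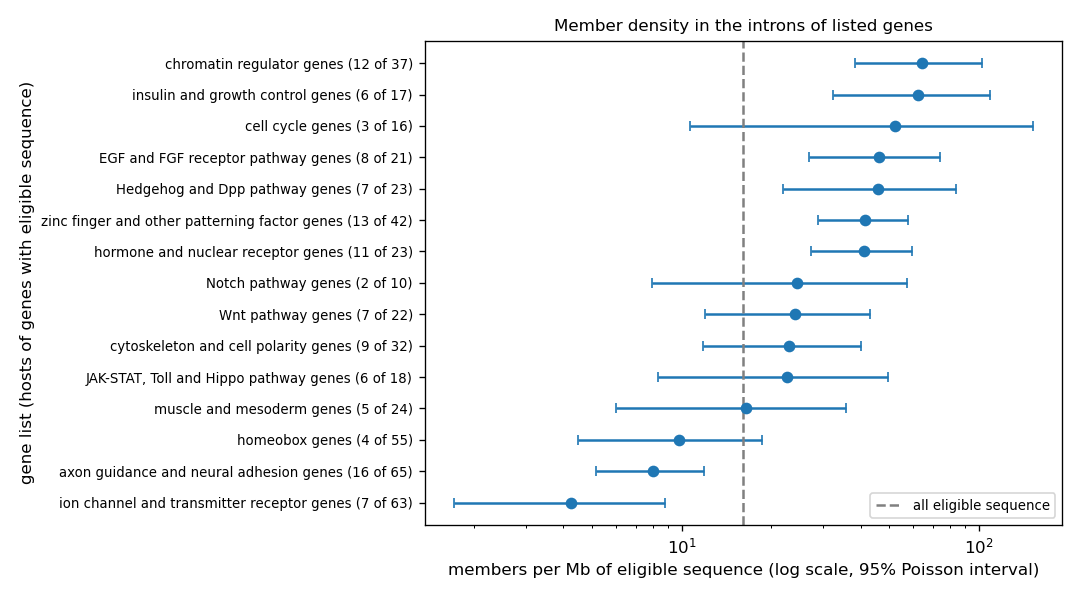
Members per Mb of eligible sequence (log scale) in the genes of each list, with exact Poisson 95% intervals, and in brackets the number of hosts of the genes with eligible sequence. The dashed line is the density over all eligible sequence, 16.1 per Mb, which is not matched to the lists for distance to a TSS. Chromatin regulators (64.5) are at the top, and ion channel and transmitter receptor genes (4.26) are at the bottom.

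Members were centred on AT-rich DNA, as in the windows of Tlk, Kdm2 and CHES-1-like printed above. In windows of 201 bp around the summit, mean GC content was 35.9% for members and 41.1% for weaker distal intronic peaks, with SDs over peaks of 7.28 and 7.76. Eligible sequence cut into windows of the same length had 40.4%. Proximal intronic optimal peaks (36.1%) and those between genes (36.1%) were like the members, and promoter peaks had 38.8%. In replicates 1, 2 and 3 the distal intronic peaks of the top list had 36.5%, 36.2% and 36.8% and the weaker ones 41.2%, 40.8% and 41.6%. The difference was -4.73 percentage points ± 0.142 (SD, n = 3; two-sided exact sign-flip permutation test, p = 0.25). This comparison was chosen after the data were seen.

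The low GC content was narrow. It reached 33.8% in the 50 bp bin centred 25 bp upstream of the summit on the + strand, rose to a mean of 43.4% between 150 and 350 bp on either side, and was 40.9% between 1000 and 1500 bp. Weaker distal intronic peaks differed from their own flanks by -0.625 percentage points, against -4.96 for members. An unbroken run of 12 or more A or T letters within the central 101 bases was present in 33.9% of members (Wilson 95% interval 30.5 to 37.5) and in 20.1% of weaker peaks (19.2 to 21.0). Such a run was in 35.3% of proximal intronic optimal peaks, 30.4% of those between genes and 28.6% of those at promoters. GC content was 34.8% in the strongest of the 4 signal groups and 36.5% in the weakest. Over the 687 members, the Spearman correlation of signal with GC content was -0.08, a description of peaks that share libraries and base composition.

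**Figure D5:**
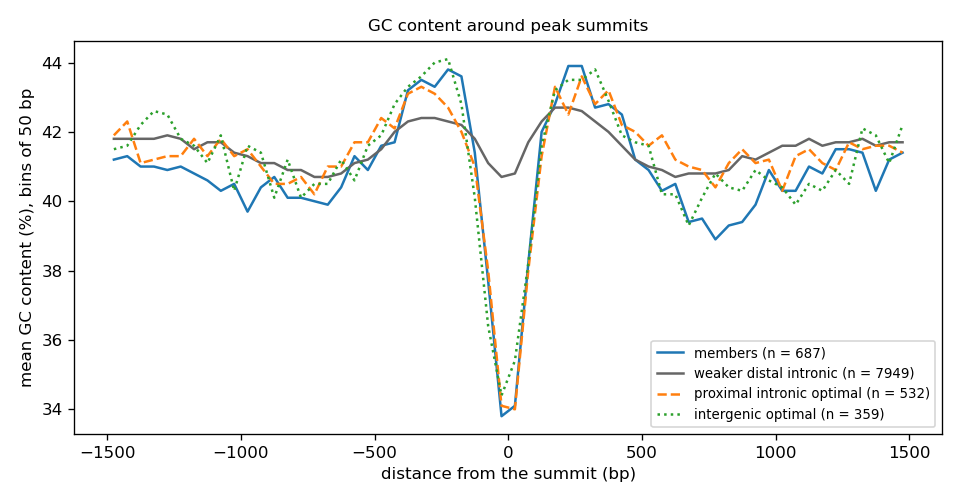
Mean GC content in bins of 50 bp, by distance from the summit in bp, for members (blue), weaker distal intronic peaks (grey), proximal intronic optimal peaks (orange) and optimal peaks between genes (green). The 3 optimal sets dip to between 33.8% and 34.4% at the summit, and the weaker peaks stay above 40%.

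Words of 6 letters were counted in the windows of 201 bp. Of 2080 words with strands joined, 36 consist of A and T alone, and all 36 were in a larger share of member windows than of weaker windows. The largest difference was for AAATAT, in 54.7% of member windows and 36.6% of weaker ones, followed by AAAATA (54.6% and 39.3%), AATATT (34.9% and 20.3%), TAAATA (46.1% and 31.5%) and AAAAAT (55.6% and 41.2%). The other 5 of the first 10 were AATATA (37.0% and 23.5%), TTAAAA (42.9% and 29.8%), AAATAA (52.1% and 39.0%), ATATTA (32.0% and 19.2%) and AATAAT (38.3% and 25.8%). The words lower by most were AGCCAA (8.73% and 17.1%), GCAGCA (7.28% and 15.5%) and GCCAAA (13.4% and 21.5%).

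A search of either strand for 24 motifs took the 201 bp around each summit. Of these motifs, 8 were in a larger share of the top peaks than of the weaker peaks in 3 of 3 replicates, 8 in a smaller share in 3 of 3, and 8 were mixed. The forkhead element TGTTTAC was in 9.75% of members (Wilson 95% interval 7.75 to 12.2), 6.08% of weaker peaks (5.57 to 6.62) and 4.07% of all eligible windows. In the replicate lists it was higher by 4.72 percentage points ± 0.561 (SD, n = 3). The homeodomain word TAATTA was in 17.3%, 13.1% and 14.1%, the GATA element AGATAA in 15.9%, 13.2% and 11.6%, and the AP-1 element TGANTCA in 6.70%, 4.43% and 4.18% of the same 3 sets. Each of these 3 was higher in 3 of 3 replicates. TGTTTAC was in 8.46% of proximal intronic optimal peaks, 4.46% of those between genes and 7.16% of those at promoters. In the same order, TAATTA was in 18.6%, 18.4% and 14.0%, AGATAA in 15.4%, 12.5% and 12.2%, and TGANTCA in 5.83%, 4.46% and 4.27%.

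The GAGA element GAGAG, which GAGA factor binds, was in 26.2% of members (23.1 to 29.6), 24.1% of weaker peaks and 21.5% of eligible windows. The value for weaker peaks lies inside the interval of the members. Among other optimal peaks, 28.6% of proximal intronic ones, 19.8% of those between genes and 30.1% of those at promoters had GAGAG. In replicates 1, 2 and 3 the top peaks had it in 28.3%, 28.6% and 26.7% and the weaker in 23.7%, 23.3% and 24.1%, a difference of 4.16 percentage points ± 1.35 (SD, n = 3; two-sided exact sign-flip permutation test, p = 0.25). Set against weaker peaks of like GC content, the difference was 7.67. The longer GAGAGAG, which contains GAGAG, was in 4.51% of members and 3.66% of weaker peaks. The CTC repeat, the E-box CATATG and both GAGA elements complete the 8 higher motifs. The CTC repeat is CTCTCTCT, which contains GAGAGAG when the other strand is read. Each window with the CTC repeat therefore also has both GAGA elements. These motifs are nested forms of the same repeat and are not separate findings.

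Several other words were in a smaller share of members than of weaker peaks. The core GCCAT, bound by Pleiohomeotic, was in 24.3% of members (21.2 to 27.7), 36.0% of weaker peaks (35.0 to 37.1) and 35.8% of eligible windows, and it was lower in 3 of 3 replicates, by a mean of -10.1 percentage points ± 1.01 (SD, n = 3). The Tramtrack-type word AGGAC was in 7.86%, 15.1% and 18.4% of these sets, the Ets element CCGGAA in 2.18%, 4.79% and 4.90%, and the GC box GGGCGG in 4.37%, 7.77% and 6.37%. GCCAT was in 23.9% of proximal intronic optimal peaks, 29.5% of those between genes and 24.8% of those at promoters. In the same order, AGGAC was in 7.52%, 11.1% and 8.49%, CCGGAA in 2.44%, 4.74% and 7.0%, and GGGCGG in 4.14%, 4.46% and 4.33%. The CA repeat CACACA, the E-box CAGGTG, the nuclear receptor half-site AGGTCA and the TCF element ATCAAAG complete the 8 lower motifs. The Zelda-type word CAGGTAG, the E-box CAGCTG, the E-box CACGTG, the Runx element ACCACA, the Su(H) element GTGGGAA, the cyclic AMP response element, the DRE and the motif 1 core were mixed between replicates. The GC difference stands beside all of these shares, and apart from the GAGAG value set against peaks of like GC content, its part in them was not tested.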

How the data were processed

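Peak lists in narrowPeak format on dm6 were analysed. Per the submitters' file list, the authors made a relaxed list for each replicate from its alignments and 1 control file, a pooled list, and the optimal list by irreproducible discovery rate (IDR). The aligner, caller and IDR threshold are not given in the sources used here. Signal, in the deposited lists, is the caller's own value for each peak, and it was used only to rank and describe peaks within a list. Each relaxed list had 30000 peaks, so weak entries include background. Depth is unknown.

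Genes came from Ensembl release 115 for that build (Release 6) without transposable elements, with sequence from RefSeq. The main host was the protein-coding gene holding the summit in an intron, the longest where several did. Weaker peaks of a list are those ranked below 3545. Shares have Wilson and densities exact Poisson 95% intervals, which cover counting error only. Replicates were compared by two-sided exact sign-flip permutation tests. Nothing says how the 3 embryo collections were separated, so the spread between replicates may be technical.

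Genes were named by rule: the hosts of the 20 strongest members, the 10 hosts with most members (those with the same number also listed), the hosts of the largest clusters, the densest hosts with at least 3 members, the edge and extreme members, and per list up to 4 hosts and up to 2 genes without a member. NK7.1, cad, Elk, ClC-a and Ih were named besides, to show that the lists are not complete. Members, lists, motifs and tests were chosen with earlier results of these data known. Alternatives were other distances, overlap rules, transcripts, windows, merged peaks and each replicate left out. The rule, clusters, overlaps and motif search were tested on simulated data. Python 3.11.15, numpy 2.4.6, pandas 2.3.3, scipy 1.17.1 and matplotlib 3.10.9 were used. The dm3 lists were not used.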

Additional observations from a re-analysis of the deposited data

How the results depend on the processing

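Requiring more than 5000 bp to a protein-coding TSS left 346 members, and the stronger part of the optimal list held 300. Asking for the top lists of both other replicates, with each replicate left out in turn, left 412 to 458; this filters the list and does not recompute it without that replicate. The share held by all 3 replicates was 84.6% with top lists of double length and 44.5% with summits within 100 bp, and the share held by both others was 60.0% to 66.7%.

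The intron 1 share was 32.5% when every transcript had to number it so, 58.5% with any transcript, 47.7% beyond 1000 bp and 33.8% beyond 5000 bp, and 40.5% to 42.4% with a replicate left out. The share within a cluster was 33.3% at 5 kb, 53.9% at 20 kb, 38.7% with overlapping peaks merged and 31.7% in the stronger part of the list, and 38.3% to 40.8% with a replicate left out.

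The GAGAG difference stayed positive in the alternatives run: 1.52 percentage points in windows of 50 bp on each side, 10.3 in windows of 200 bp, 1.35 for GAGAGAG, 7.67 against weaker peaks weighted by GC content, and 3.62 to 4.92 without 1 replicate. The median signal difference in the replicate lists was -4.61 to -2.28 without 1 replicate, and that in the optimal list, -10.1, was -16.7 to -14.0. The GC difference, added after the data were seen, stayed negative: -6.32 at 50 bp, -2.37 at 200 bp, -4.52 beyond 1000 bp, -5.78 in the stronger part of the top list, and -4.79 to -4.65 without 1 replicate. The causes of these moves were not tested. No paired analysis was possible between groups of samples, because there is 1 group only; the sign-flip tests pair classes of peaks within a replicate. With depth unknown, no limit can be set on what weaker binding the lists miss.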
